A study of Mus musculus with 1528 samples.

Results

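Clearance of dying cells by macrophages uses receptors that recognize phosphatidylserine on the dying cell, either directly or through soluble bridging proteins. 9 genes of this machinery were chosen by name from the 55421 genes counted: the receptor tyrosine kinases *Mertk* and *Axl*, their bridging ligands *Gas6* and *Pros1*, the direct receptors *Stab1* and *Timd4*, the bridge *Mfge8*, and the integrin subunits *Itgav* and *Itgb5*. All 9 were found in the count table, and 8 passed the filter on low counts, *Timd4* being the exception. The cells were bone marrow–derived macrophages (BMDMs) of male C57BL/6J mice, grown in CSF1. For 24 h they received 10 ng/ml of each cytokine of the mixture: IL4+IL13, or the same pair with TNF added (IL4+IL13+TNF). There was no group without IL4+IL13. Cells were sorted singly, after live/dead staining, into 4 plates for Smart-seq2, a full-length method that carries no molecular identifiers. Plates 2 and 3 held samples numbered 1 in their labels, and plates 4 and 5 held those numbered 2. These numbers are read here as mouse 1 and mouse 2. On every plate the treatments lay in separate rows, so that treatment and position on the plate cannot be told apart.

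MerTK and AXL are related kinases that reach phosphatidylserine through a bridge: GAS6 binds both, and protein S (encoded by *Pros1*) binds MerTK. MerTK is the family member linked to quiet, tolerogenic uptake in resident and alternatively activated macrophages, whereas AXL is the member typically found on inflammatory myeloid cells. MFG-E8 forms a second bridge, to integrins that contain the αv subunit, and stabilin-1 and TIM-4 bind phosphatidylserine without a bridge.

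After filtering wells, 1386 of 1524 remained, with 333 to 357 per mouse and treatment. Their counts were summed per mouse and treatment, which gave 4 sums of 162260282 to 179757666 fragments. Levels are given as CPM, counts per 1000000 fragments counted to genes, and the replicate is the mouse (n = 2 per treatment). The 8 macrophage markers, led by *Lyz2*, were present in all sums, at 23218 to 36255 CPM in total. Lists of neutrophil, T and NK cell, B cell, mast cell and basophil, fibroblast and stromal, and erythroid markers each summed to at most 5.36 CPM. The 5 dendritic cell markers summed to 7.88 and 11.1 CPM with IL4+IL13 but to 29.8 and 205 CPM with IL4+IL13+TNF, and none was at 0. Most of the difference was in *Ccr7*, at 0.112 and 0.450 CPM with IL4+IL13 and at 20.5 and 190 CPM with TNF, mouse 1 first. The 1 well with the largest total, 6122892 fragments of mouse 1 under IL4+IL13, is kept in the values below, and values without it are given where it matters.

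The region upstream of a gene's start is where cytokine-driven factors may bind, and it is shown for the receptor pair and the bridges that link them to the dying cell. The following are the 250 bases before the RefSeq start on GRCm38.p6, written 5′ to 3′ along the gene's strand, at chr2:128698665-128698914 (plus strand), chr7:25788734-25788983 (minus strand), chr8:13494536-13494785 (minus strand) and chr16:62854057-62854306 (plus strand), with capitals for matches to the motifs searched.
Mertk: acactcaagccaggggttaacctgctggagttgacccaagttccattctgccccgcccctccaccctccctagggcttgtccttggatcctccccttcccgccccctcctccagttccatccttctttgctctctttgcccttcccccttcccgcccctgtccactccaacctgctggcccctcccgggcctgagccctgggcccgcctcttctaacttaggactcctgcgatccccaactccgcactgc
Axl: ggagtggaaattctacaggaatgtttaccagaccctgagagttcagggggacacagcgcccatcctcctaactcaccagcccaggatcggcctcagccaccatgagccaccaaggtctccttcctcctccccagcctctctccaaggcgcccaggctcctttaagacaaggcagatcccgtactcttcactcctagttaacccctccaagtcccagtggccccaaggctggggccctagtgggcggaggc
Gas6: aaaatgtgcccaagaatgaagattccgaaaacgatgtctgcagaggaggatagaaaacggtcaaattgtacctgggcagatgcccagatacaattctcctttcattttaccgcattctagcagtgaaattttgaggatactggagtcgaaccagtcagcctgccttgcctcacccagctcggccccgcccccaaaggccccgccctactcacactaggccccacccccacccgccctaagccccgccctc
Pros1: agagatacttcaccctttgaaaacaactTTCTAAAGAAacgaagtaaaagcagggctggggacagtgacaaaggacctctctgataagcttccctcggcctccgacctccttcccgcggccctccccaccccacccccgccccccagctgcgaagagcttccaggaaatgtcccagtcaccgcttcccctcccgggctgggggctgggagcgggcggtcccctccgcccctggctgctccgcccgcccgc
4 motifs were searched on both strands: the STAT6-type motif (TTC and GAA with 4 bases of any kind between them), the AP-1 motif TGANTCA, the NF-kB-type motif (GGG and TTTCC with 2 bases of any kind between them) and the Maf motif TGCTGAC. In windows of the same length, 5.85%, 6.75%, 1.41% and 3.81% of 32851 promoters held them, in that order. *Pros1* held 1 STAT6-type match, beginning 222 bases before the start, and *Timd4* held 1 Maf motif, beginning 45 bases before it. The windows of *Mertk*, *Axl*, *Gas6*, *Stab1*, *Mfge8*, *Itgav* and *Itgb5* held no match. A match is a description of the sequence only, and no binding was measured in these samples. The 4 windows printed were 63.6%, 60%, 54.8% and 64.4% G or C, with a median of 52.4% over all promoters.

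Per kilobase of exon, the bridges and receptors spanned a wide range with IL4+IL13. *Gas6* stood at 187 ± 45 CPM per kb (SD, n = 2), above *Itgb5* at 23.7 ± 1.16 and *Mfge8* at 17 ± 3.96. *Stab1* at 11.1 ± 0.273 and *Pros1* at 10.4 ± 1.20 CPM per kb overlapped between mice, as did *Axl* at 6.90 ± 4.85, *Mertk* at 5.52 ± 3.19 and *Itgav* at 5.33 ± 0.454. With IL4+IL13+TNF *Gas6* was still first, at 46.6 ± 5.89 CPM per kb, and *Mertk* was last of the 8 tested genes, at 2.23 ± 1.14, below *Itgav* at 3.65 ± 0.411 in both mice. *Axl*, at 8.31 ± 2.55 CPM per kb, stood above *Mertk* in both mice, as it did with IL4+IL13 (3.46 against 3.27 CPM per kb in mouse 1 and 10.3 against 7.78 in mouse 2).

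The comparison of IL4+IL13+TNF with IL4+IL13 asks how TNF alters gene expression in alternatively activated macrophages. For 6 of the 8 tested genes (*Mertk*, *Gas6*, *Pros1*, *Stab1*, *Itgav* and *Itgb5*) both sums with TNF lay below both sums without it, and each of the 6 was lower on 4 of 4 plates. Both sums were lower for 24.1% of the 17034 genes tested. Plates of a mouse are not replicates of it, and the share of all genes lower on 4 of 4 plates was not determined. None of the 8 passed the edgeR quasi-likelihood test with treatment alone, which called 1 gene in all (0.00587% of genes tested), and 4 of the 8 had an unadjusted p under 0.05, as did 8.1% of all genes tested. The number in a sample's label is read here as the mouse, and samples of both treatments that share that number were paired. The paper speaks of independent experiments, so mouse and experiment cannot be told apart. With the mouse as a block *Mertk*, *Gas6* and *Pros1* fell, where 1.88% of genes were called lower. DESeq2 without the block called *Gas6* and *Pros1* lower, and 1.72% of genes in that direction. The median log2 fold change was -0.66 over the 8 genes and 0.0038 over all genes tested.

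**Figure D1:**
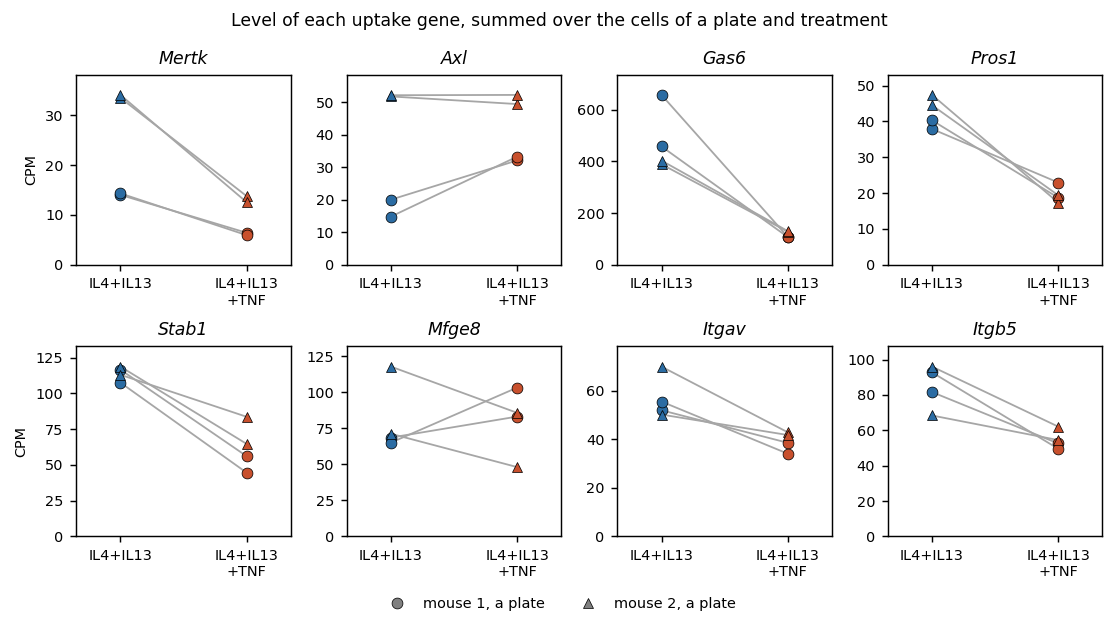
CPM of the 8 tested genes (y axes, each from 0) under IL4+IL13 (blue) and IL4+IL13+TNF (orange), summed over the cells of a plate. Circles are the plates of mouse 1, triangles those of mouse 2, and lines join the treatments of a plate. Lines run down on all 4 plates for *Mertk*, *Gas6*, *Pros1*, *Stab1*, *Itgav* and *Itgb5*.

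*Mertk* (ENSMUSG00000014361, chr2:128698956-128802894, plus strand) encodes the receptor that both GAS6 and protein S activate, and it was lower with TNF in each mouse from different starting levels. It measured 14.2 CPM in mouse 1 and 33.7 CPM in mouse 2 with IL4+IL13, against 6.15 and 13.2 CPM with TNF. The groups did not overlap, but the margin was narrow, since mouse 1 without TNF was close to mouse 2 with it. Within a mouse the level was 2.30-fold and 2.56-fold lower with TNF. The log2 fold change was -1.22 ± 0.56 (SE), with an edgeR adjusted p of 0.679, which became 0.0317 with the mouse as a block and was 0.238 with DESeq2. Plates of 1 mouse gave nearly the same values, with log2 fold changes between -1.40 and -1.07 over the 4 plates. Without the IL4+IL13 sum of mouse 2 the estimate was -0.48, and without the TNF sum of mouse 2 it was -1.85.

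*Axl* (ENSMUSG00000002602, chr7:25757273-25788705, minus strand), the other receptor kinase measured here, had levels that overlapped between treatments. It stood at 17.4 and 52.0 CPM with IL4+IL13 and at 32.8 and 50.9 CPM with TNF, both TNF sums lying between the IL4+IL13 sums. In mouse 1 both plates were higher with TNF, by 0.67 and 1.14 on the log2 scale, whereas the plates of mouse 2 differed by -0.07 and 0.0027. The log2 fold change was 0.36 ± 0.55 (SE), with an edgeR adjusted p of 0.942 and 0.295 with the block. Without the IL4+IL13 sum of mouse 2 it was 1.34 (adjusted p = 0.415), and without that of mouse 1 it was -0.22 (adjusted p = 0.838), so that its direction turned on single sums. Cells with any *Ccr7* fragment numbered 19 and 45 with IL4+IL13 and 44 and 114 with TNF. Without them *Axl* stood at 17.2 and 53.0 CPM with IL4+IL13 and at 29.9 and 46.3 CPM with TNF.

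*Gas6* (ENSMUSG00000031451, chr8:13465374-13494490, minus strand), the bridge to both kinases, had the lowest fitted estimate of the 8 genes. It was at 558 and 396 CPM with IL4+IL13 and at 108 and 129 CPM with TNF, so that the lower of the IL4+IL13 sums was still well above both TNF sums. The log2 fold change was -1.92 ± 0.24 (SE), a 3.77-fold lower level, with an edgeR adjusted p of 0.165, 0.0146 with the block and 8.20e-09 with DESeq2. Mouse 1 differed 5.16-fold and mouse 2 differed 3.06-fold. The deepest well held 11.3% of the *Gas6* fragments of its group, and without it mouse 1 measured 512 CPM with IL4+IL13 and the log2 fold change was -1.84.

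*Pros1* (ENSMUSG00000022912, chr16:62854307-62929346, plus strand), the gene for the second bridge to MerTK, also fell with the mouse as a block. Its levels were 39.1 and 46.0 CPM with IL4+IL13 and 20.6 and 18.4 CPM with TNF, with no overlap. The log2 fold change was -1.03 ± 0.21 (SE), with an edgeR adjusted p of 0.289, 0.0372 with the block and 0.00319 with DESeq2. The deepest well held 15% of the *Pros1* fragments of its group, and mouse 1 measured 34.4 CPM with IL4+IL13 without it.

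**Figure D2:**
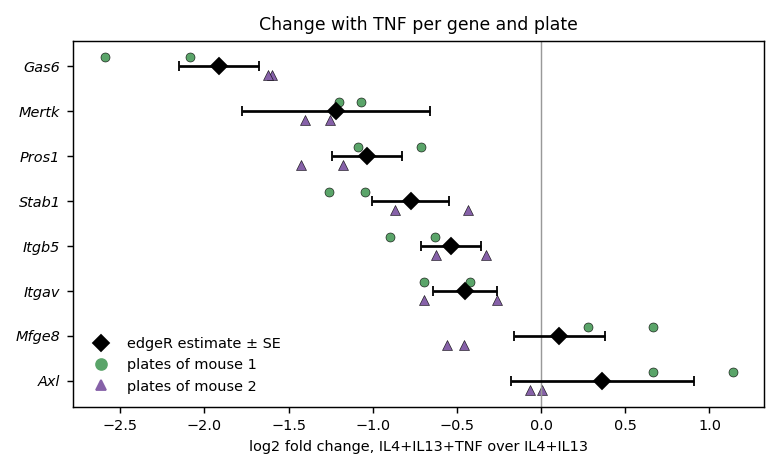
Log2 fold change of IL4+IL13+TNF over IL4+IL13 (x axis) for each gene (y axis): the edgeR estimate with its SE (black diamonds) and the values of single plates of mouse 1 (green circles) and mouse 2 (purple triangles). *Gas6* lies at -1.92, and the plates of the mice lie on opposite sides of 0 for *Mfge8*.

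Among the direct receptors, *Stab1* (ENSMUSG00000042286, chr14:31139013-31168641, minus strand), encoding the scavenger receptor stabilin-1, stood at 112 and 116 CPM with IL4+IL13 and at 51.0 and 74.2 CPM with TNF. The groups did not overlap. The log2 fold change was -0.78 ± 0.23 (SE), and the gene missed the threshold in each edgeR fit (adjusted p = 0.479, and 0.0611 with the block) and in DESeq2 (0.117). *Stab1* shares 112 exonic bases with *Nt5dc2* on the opposite strand, and strand was not used in counting. How fragments from those bases were assigned was not examined.

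*Timd4* (ENSMUSG00000055546, chr11:46810800-46844332, plus strand), the gene for TIM-4, a marker of several resident macrophage populations, was close to absent. With IL4+IL13 it had 4 fragments in mouse 1 and 21 in mouse 2, and with TNF it had 0 and 159, of which 57.2% came from a single cell. At equal depth it was found in 9 of 641 cells with IL4+IL13 and in 6 of 609 with TNF. The 303 cells of mouse 1 with TNF held no fragment, which allows up to 0.990% of cells with a fragment (3 counts of the total). No fold change is given at these counts.

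*Itgb5* (ENSMUSG00000022817, chr16:33829665-33949338, plus strand) encodes β5, which pairs with αv in a receptor for MFG-E8, and was at 87.2 and 81.4 CPM with IL4+IL13 and at 50.9 and 58.3 CPM with TNF. *Itgav* (ENSMUSG00000027087, chr2:83724397-83806916, plus strand), the αv subunit, was at 53.8 and 60.7 CPM with IL4+IL13 and at 36.1 and 42.4 CPM with TNF. Neither pair of groups overlapped. Log2 fold changes were -0.54 ± 0.18 (SE) for *Itgb5* and -0.45 ± 0.19 for *Itgav*, and neither passed the threshold (edgeR adjusted p = 0.532 and 0.651, and 0.0955 and 0.112 with the block). The deepest well held 11.6% of the *Itgb5* fragments of its group, and mouse 1 measured 79.8 CPM with IL4+IL13 without it. *Itgav* shares 634 exonic bases with the antisense gene *Gm13684*.

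*Mfge8* (ENSMUSG00000030605, chr7:79133768-79149060, minus strand), the bridge to these integrins, had levels that overlapped between treatments. It was at 66.8 and 93.1 CPM with IL4+IL13 and at 94.2 and 67.0 CPM with TNF, so that the order of the mice was exchanged. Both plates of mouse 1 were higher with TNF and both plates of mouse 2 were lower. The log2 fold change was 0.11 ± 0.27 (SE), with an edgeR adjusted p of 0.973 and 0.852 with the block.

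The levels of *Mertk* and *Axl* were next set against each other within each sum, which removes differences in depth. *Mertk* was at 0.812 and 0.649 of the level of *Axl* with IL4+IL13 and at 0.188 and 0.259 with TNF. Every plate showed the lower ratio with TNF, from log2 values of -0.63 to -0.05 without TNF to -2.49 to -1.84 with it. The log2 ratio differed by -2.11 in mouse 1 and by -1.33 in mouse 2 (TNF minus no TNF), with a mean of -1.72. An exact two-sided permutation test over the 4 sums gave p = 0.333, the smallest value that 2 mice against 2 allow. The parts of this ratio moved differently in the mice, with *Mertk* lower in both and *Axl* higher in mouse 1.

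To see whether this was carried by more cells or by more transcript per cell, each cell was thinned to 339000 fragments, which kept 1250 cells. *Mertk* was found in 23.2% (95% exact binomial interval, 18.8 to 28.1) and 37.2% (31.8 to 42.9) of cells with IL4+IL13, and in 15.8% (11.9 to 20.4) and 23.5% (18.9 to 28.7) with TNF. The intervals cover counting error only. *Axl* was found in 16.6% (12.7 to 21) and 28.5% (23.5 to 33.9) of cells with IL4+IL13, and in 25.4% (20.6 to 30.7) and 35% (29.6 to 40.6) with TNF. The share of cells with *Mertk* was thus lower in both mice, with differences of -7.35 and -13.7 percentage points, and that with *Axl* was higher in both, by 8.85 and 6.49 points, although the summed level of *Axl* was not higher in mouse 2. Unthinned, mean shares were 32.7% and 22.5% for *Mertk*, and 25.4% and 32.2% for *Axl*. For comparison, 35 marker genes of cell types that should be absent were found in a median of 0.640% of cells, with *S100a8* highest at 12.4%. Counting only cells with at least 5 fragments, mean shares were 20.1% and 12.5% for *Mertk* and 11.6% and 19.5% for *Axl*. Among unthinned cells with an *Axl* fragment, its median was 12.2 and 6.09 CPM with IL4+IL13 and 52.9 and 34.5 CPM with TNF, higher in both mice. Among those with *Mertk* it was 23.1 and 28.0 CPM with IL4+IL13 and 27.6 and 14.9 CPM with TNF, so that the mice differed in direction.

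Cells were then grouped by which of the kinases was found. With IL4+IL13 2.41% and 11% of cells held both, and with TNF 1.65% and 6.86% did. The product of the shares of each gene, which independent detection would give, was 3.84% and 10.6% with IL4+IL13 and 4.03% and 8.23% with TNF, so that the observed shares lay near or below it. Cells with *Mertk* alone made up 20.8% and 26.2% with IL4+IL13 and 14.2% and 16.7% with TNF. Cells with *Axl* alone made up 14.2% and 17.5% with IL4+IL13 and 23.8% and 28.1% with TNF. Neither was found in a mean of 54.0% ± 12.3 (SD, n = 2) of cells with IL4+IL13 and 54.4% ± 8.51 with TNF, so that these shares differed by less than the spread between mice. With no identifiers for molecules and 1 cell per well, a cell without a fragment may still hold the transcript.

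**Figure D3:**
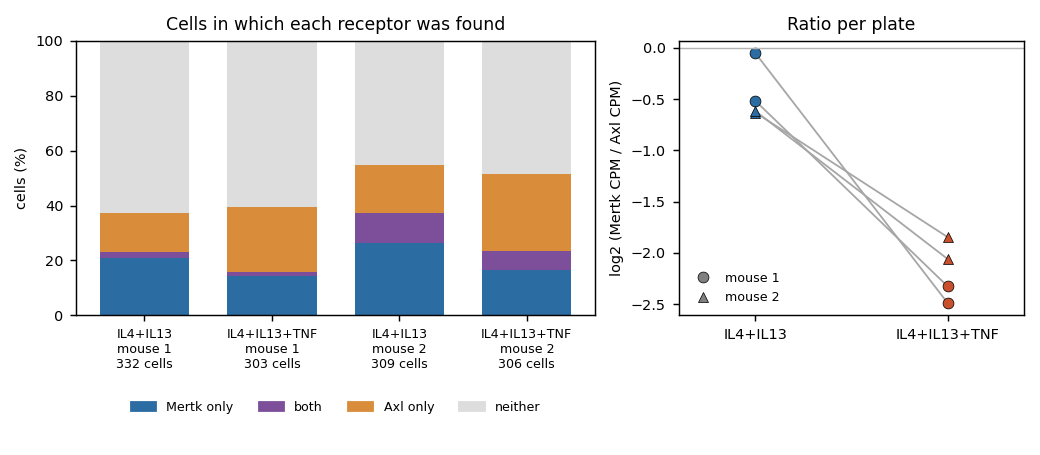
Left, share of thinned cells (%, y axis from 0) with *Mertk* only, both, *Axl* only or neither, for each mouse and treatment. Right, log2 ratio of the CPM of *Mertk* to that of *Axl* per plate under each treatment, with circles for mouse 1 and triangles for mouse 2. Cells with *Axl* only took 23.8% and 28.1% with TNF, and all 4 plates have a lower ratio with TNF.

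The single cells showed how unevenly these genes were used. The top 5% of cells held 51.7% to 71.6% of the summed *Mertk* CPM and 62.2% to 84.8% of that of *Axl*, but 15.8% to 32.9% of that of *Gas6*. *Gas6* was thus broadly expressed, and it was found at equal depth in 96.4% and 93.2% of cells with IL4+IL13 and in 78.9% and 73.9% with TNF. Its median over all kept cells was 400 and 285 CPM with IL4+IL13 and 45 and 34.8 CPM with TNF. Both the share of cells and the level in cells with *Gas6* were therefore lower, the latter with medians of 415 and 305 CPM against 73.6 and 74.4 CPM. *Pros1* was found in 46.4% and 47.6% of cells with IL4+IL13 and in 36.3% and 33.7% with TNF.

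*Stab1* was found in 68.1% and 67.3% of thinned cells with IL4+IL13 and in 68.6% and 66.3% with TNF, a difference of 0.57 points in mouse 1 and -0.97 points in mouse 2, while its CPM was lower in both mice. This share depended on the setting, with mean differences of -4.22 to -1.89 points under 5 other choices of thinning, detection and cell filter. At 5 fragments or more it was found in 57.8% and 42.1% of cells with IL4+IL13 and in 47.9% and 44.8% with TNF, so that the mice differed in direction. *Mfge8* was found in 53.9% to 57.4% of cells over the 4 sets, *Itgav* in 56.2% to 63.8% and *Itgb5* in 68.0% to 79.2%.

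**Figure D4:**
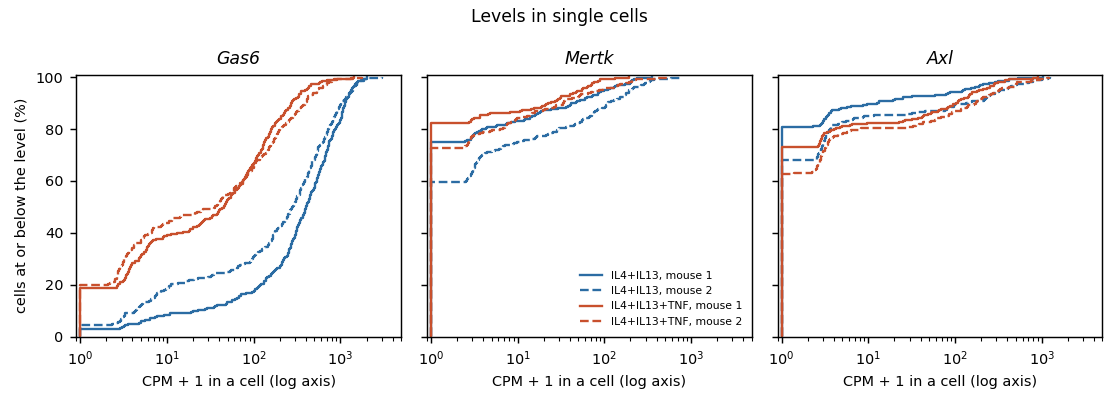
Cumulative share of kept cells (%, y axis) at or below a level of *Gas6*, *Mertk* or *Axl* (x axis, CPM + 1, log scale) under IL4+IL13 (blue) and IL4+IL13+TNF (orange), solid for mouse 1 and dashed for mouse 2. The *Gas6* curves with TNF lie to the left over most of their range, with medians of 45 and 34.8 CPM against 400 and 285, and most cells hold no *Mertk* or *Axl*.

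Genes that varied with each receptor from cell to cell were then ranked by the mean of Spearman's rho over 8 sets (each plate and treatment), among 10114 genes found in at least 25% of thinned cells. These correlations are descriptions within libraries of equal depth, and cells of a set share mouse, plate and treatment. *Mertk* went most with its ligand *Gas6* (mean rho = 0.22), followed by the inhibitory Fc receptor *Fcgr2b* (0.19), the transcription factor *Maf* (0.18), the selenium carrier *Selenop* (0.18) and *Arhgap19* (0.18). Its lowest values were with *Tnip3* (-0.17) and *Tagln2* (-0.16). All of these are weak.

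*Axl* varied from cell to cell with genes of antigen presentation. Its highest values were with the invariant chain *Cd74* (0.34), the class II genes *H2-Ab1* (0.33) and *H2-Aa* (0.32), the class II peptide loading factor *H2-DMa* (0.32) and *Lsp1* (0.31), and for *Cd74* the range over the 8 sets was 0.24 to 0.47. The lowest were with the lysosomal protease *Ctsl* (-0.34) and osteopontin, *Spp1* (-0.27). The value for *Cd74* was 0.34 with IL4+IL13 and 0.33 with TNF.

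Set against summed genes of 7 cell states, the members parted along the same line. *Gas6*, *Stab1* and *Mertk* had mean rho of 0.42, 0.31 and 0.20 with the C1q-high state (*C1qa*, *C1qb*, *C1qc* and *Maf*), and -0.30, -0.27 and -0.10 with the class II state (*H2-Aa*, *H2-Ab1*, *H2-Eb1*, *Cd74* and *Ciita*). *Axl* had -0.19 and 0.34. For *Itgb5* the Gpnmb-high state gave 0.22, and *Mfge8*, *Itgav* and *Pros1* had no state past 0.12 in size. With the dendritic cell markers *Axl* had a mean rho of 0.02. *Flt3*, at 6.94 to 7.36 CPM in every sum and found in 93.1% of kept cells, made up most of that list with IL4+IL13. That rho therefore says little about dendritic cells, and their part in the level of *Axl* was not tested. The summed class II genes were at 862 and 1689 CPM with IL4+IL13 and at 2238 and 3786 CPM with TNF, higher with TNF in both mice, and their part in the level of *Axl* was not tested. The C1q-high genes summed to 2604 and 2463 CPM with IL4+IL13 and to 2090 and 2477 CPM with TNF, which overlap. The M2 genes (*Clec10a*, *Mgl2*, *Mrc1*, *Retnla* and *Arg1*), with which *Gas6* had a mean rho of 0.28, summed to 2450 and 2955 CPM with IL4+IL13 and to 1129 and 1643 CPM with TNF, lower in both mice as *Gas6* was, and their part in its level was not tested.

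**Figure D5:**
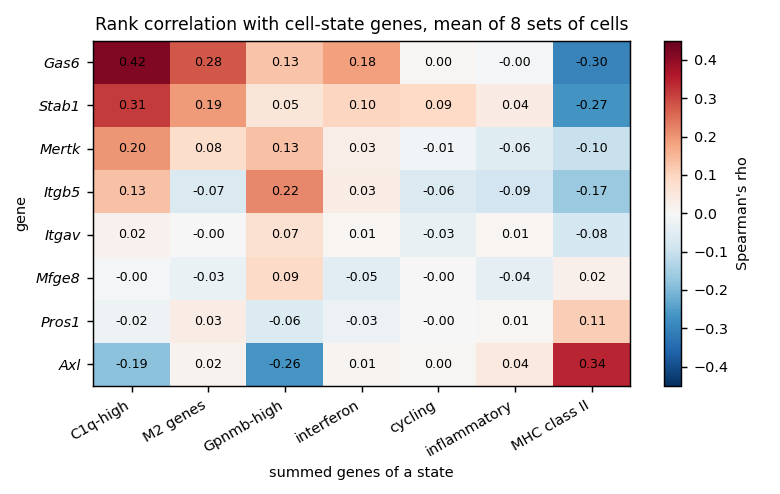
Mean Spearman's rho over 8 sets of cells (colour and number) between each gene (y axis) and the summed genes of a cell state (x axis). *Gas6* is highest with the C1q-high state (0.42) and *Axl* with the class II state (0.34).

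Between the members themselves, mean rho over the 28 pairs without *Timd4* ran from -0.22 to 0.35, with a median of 0.02. *Gas6* and *Stab1* formed the highest pair (0.35, above 0 in 8 of 8 sets). *Axl* and *Gas6* formed the lowest (-0.22, above 0 in 0 of 8 sets), and *Axl* also had -0.20 with *Stab1*. *Mertk* and *Axl* had -0.09, above 0 in 2 of 8 sets. The bridges *Gas6* and *Pros1*, which were both lower with TNF, had -0.05.

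The rest of the uptake pathway was taken from a list of 60 other genes, of which 52 were tested. None passed the edgeR test with treatment alone, and 17 had an unadjusted p under 0.05 (8.1% of all genes tested). With DESeq2 3 fell (*Havcr2*, *Itgb3* and *Cd93*) and 5 rose (*Msr1*, *C1qa*, *Gpr132*, *Nr1h3* and *Adam17*), against 1.72% and 1.79% of all genes tested. With the mouse as a block 7 fell and 8 rose (1.88% and 1.94% of all genes tested). The other genes named below as falling or rising with the block did not pass DESeq2. Sums did not overlap for 18 that were lower and for 8 that were higher (24.1% and 13.2% of all genes tested). The median log2 fold change of the 52 was -0.20.

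Of the 8 other phosphatidylserine receptors listed, 4 were tested and the sums of all 4 were lower with TNF. Of all genes tested, both sums were lower for 24.1%, and the block called 1.88% lower. With the block 3 fell: *Havcr2*, encoding TIM-3, from 23.7 ± 3.28 to 8.22 ± 0.206 CPM (SD, n = 2), *Cd300lf* from 39.8 ± 17.3 to 17.4 ± 10.2 CPM, and the inhibitory receptor *Cd300a* from 301 ± 25.3 to 175 ± 2.02 CPM. Their edgeR adjusted p with the block was 0.0244, 0.0276 and 0.0353.

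Of the 9 other uptake receptors tested, 3 fell and 1 rose with the block (1.88% and 1.94% of all genes tested). *Itgb3*, whose product pairs with αv to bind MFG-E8, went from 30.9 ± 6.73 to 11 ± 3.09 CPM (adjusted p = 0.0187 with the block). *Cd93*, a receptor linked to uptake of dying cells, went from 220 ± 11.4 to 95.9 ± 1.19 CPM (0.0135), and the lipid-sensing receptor *Trem2* from 914 ± 0.379 to 568 ± 50.9 CPM (0.0357). *Msr1*, scavenger receptor A, rose from 100.1 ± 33.0 to 239 ± 62.5 CPM (0.00865).

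Among 7 other bridges or ligands, 3 rose with the block and none fell (1.94% and 1.88% of all genes tested). *C1qa*, a subunit of the complement bridge C1q, rose from 77.4 ± 36.7 to 208 ± 7.82 CPM (0.0313), whereas the other subunits, named after their values were seen, had log2 fold changes of -0.04 for *C1qb* and -0.35 for *C1qc*. *Anxa1* rose from 2758 ± 504 to 4004 ± 1237 CPM (0.0296) and *Lgals3*, encoding galectin-3, from 12918 ± 1826 to 15419 ± 2855 CPM (0.0318), both with wide spread between mice. With DESeq2 the adjusted p was 0.487 for *Anxa1* and 0.846 for *Lgals3*, whose sums overlapped between treatments. *Thbs1*, a bridge to CD36, had a log2 fold change of -1.97 ± 0.85 (SE) and did not pass in either fit.

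Receptors for signals that draw phagocytes to dying cells split. *S1pr1* fell from 44.9 ± 17.1 to 17.8 ± 8.19 CPM (0.0178 with the block), and *Gpr132* rose from 2.95 ± 1.32 to 8.67 ± 1.13 CPM (0.0436). Of 8 genes for the handling of ingested lipid, 2 rose with the block, which called 1.94% of all genes tested higher. *Nr1h3*, encoding the sterol receptor LXRα, went from 13 ± 1.93 to 33.1 ± 6.73 CPM (0.0159). The cholesterol exporter *Abca1* went from 56.8 ± 32.8 to 136 ± 55.7 CPM (0.0143). The other 6 had log2 fold changes below 0, none past the threshold, and the median over the 8 was -0.31. *Adam17*, the protease known to shed MerTK from the cell surface, rose from 182 ± 68.0 to 399 ± 17 CPM (0.0302). No gene of engulfment signalling (8 tested), of the phagosome (6) or of the do-not-eat-me pair *Cd47* and *Sirpa* passed the edgeR test in either fit or DESeq2. With treatment alone, 1 of 8 genes of engulfment signalling and 1 of 6 of the phagosome had an unadjusted p under 0.05. The share over all genes tested was 8.1%, and lists this short cannot be compared with it.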

How the data were processed

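Smart-seq2 libraries of single BMDMs (2 mice, 2 treatments, 4 plates) were used. The authors deposited 1 table of counts, which are raw fragments per gene and well. Per the paper and file header, the authors aligned with gsnap to mm10 (Ensembl 98) and counted uniquely mapped fragments with featureCounts 1.6.3, without strand. Without identifiers PCR copies are counted, so intervals cover counting error only. Spike-in rows (92) were left out. 8 columns match no sample label, and 4 samples without a mouse were unassigned, and neither were used.

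Wells over 3 median absolute deviations from their plate's median were removed, on the low side for the total and detected genes and on the high side for mitochondrial and spike-in shares. Kept wells held 200235 to 6122892 fragments. Counts summed per mouse and treatment were tested with edgeR 4.0.16 (TMM, quasi-likelihood, Benjamini-Hochberg over 17034 genes, threshold 0.05) in R 4.3.3. The SE of a log2 fold change is its absolute value over the root of the F statistic, in the fit without the block. The fits were first run on simulated counts drawn without a mouse effect. Only the error of the fold changes had to be small there, so that run does not check the calls. The mouse block pairs samples that share a mouse number, whose deviations correlated with r = 0.581. Alternatives were DESeq2 1.42.0, limma 3.58.1 on log2(CPM + 1), other scalings and filters, and each sum left out. CPM are not TMM-scaled, log2 fold changes per mouse or plate use CPM plus 0.5, and linear folds per mouse are ratios of CPM. Cells were thinned with numpy 2.4.6, and exact intervals and permutation tests used scipy 1.17.1. Promoters are from RefSeq, and 9 of 9 genes matched.

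Named genes were the 9 members, pathway genes past the threshold in either edgeR fit, the 6 largest changes in each direction that moved alike in the mice, for genes present in 25% or more of cells of the higher treatment, and for *Mertk* and *Axl* the 5 highest and 2 lowest partners. Members and lists were chosen with earlier results of these data known.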

Additional observations from a re-analysis of the deposited data

Results flagged for a closer look

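*Mfge8* differed in direction between the mice: both plates of mouse 1 were higher with TNF (log2 fold changes of 0.28 and 0.66) and both plates of mouse 2 were lower (-0.56 and -0.46). The mice differed by 0.96 on the log2 scale (mouse 1 minus mouse 2), and this difference was not tested, since plates of 1 mouse are not replicates of it.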

How the results depend on the processing

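Of 207 values recomputed under alternatives, 169 kept their direction and either their side of the threshold or their size within the spread between mice. In 4 further values, differences in the share of cells with *Mfge8* (-0.25, -0.28 and -2.39 points) or *Stab1* (0.57 points), the sign turned within that spread. For shares of cells, leaving out a mouse gives the value of the other mouse, which with 2 mice always lies within that spread. These values, among them -2.39 for *Mfge8* and 0.57 for *Stab1*, are counted here but do not check stability. The edgeR fit with treatment alone called no member. A member's fold change therefore counts as kept if its sign held and it stayed uncalled, whatever its size. Among those counted are log2 fold changes of 1.34 for *Axl* and -0.48 for *Mertk*, against 0.36 and -1.22 in that fit. With the replicate block, 331 genes were called higher and 320 lower, and with DESeq2 305 and 293, against 1 and 0 without the block. Leaving out single sums gave 3 to 29 higher and 0 to 1 lower, the most without the TNF sum of mouse 1. Among the members, calls were gained with the block for *Mertk* (log2 fold change -1.19), *Gas6* (-1.90) and *Pros1* (-1.03), and with DESeq2 for *Gas6* (-1.92) and *Pros1* (-1.04). The block changed no other member's call. Direction turned for *Axl* without the IL4+IL13 sum of mouse 1 (-0.22), and for *Mfge8* with limma on mean CPM per cell (-0.0074), without the IL4+IL13 sum of mouse 1 (-0.11) and without the TNF sum of mouse 1 (-0.17). Leaving out single sums gave log2 fold changes of -1.85 to -0.48 for *Mertk*, -0.22 to 1.34 for *Axl*, -0.17 to 0.36 for *Mfge8* and -2.15 to -1.64 for *Gas6*. The causes were not tested.

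Differences in the share of cells, in percentage points, moved for *Axl* without a cell filter (4.31), for *Gas6* without thinning (-15.7) and at 5 fragments or more (-29.1), for *Pros1* at 5 fragments or more (-8.97), for cells with *Axl* only without thinning (8.69) and at 5 fragments or more (7.88), and for cells with both kinases at 5 fragments or more (0.018, with its sign turned). They also moved for *Stab1* under 5 settings of thinning, detection and cell filter (-4.22 to -1.89) and for *Timd4* under 3 (-1.08, -0.96 and, at 5 fragments or more and with its sign turned, 0.33). The ratio of *Mertk* to *Axl* ran from -1.95 to -1.49 over its alternatives. A ratio of median CPM was not run, because both medians were 0. With 2 mice per treatment, an adjusted p says little about genes that vary between mice. Leaving out the deepest well was chosen after seeing the data. It was run only in the edgeR fit without the block, which called no member with or without that well. The fits with the block and with DESeq2 were not rerun without it. Where a treatment was left with 1 sum, it was assumed to vary like the other treatment.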

Other observations

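Position within the rows of a treatment was examined for *Mertk* and *Axl*. In mouse 2 with IL4+IL13 *Axl* measured 72.4 CPM in the upper 4 rows and 34.0 CPM in the lower 4 rows, and *Mertk* measured 25 and 41.4 CPM. In mouse 1 with IL4+IL13 *Axl* measured 22.8 and 12.6 CPM and *Mertk* 17.3 and 11.4 CPM. With TNF *Axl* was at 32.8 CPM in both parts in mouse 1 and at 51.3 and 50.5 CPM in mouse 2.

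The gene that went most with *Itgb5* from cell to cell was *Gm38317*, with a mean rho of 0.68 (range over 8 sets, 0.57 to 0.74), against 0.22 for the next gene, *Trem2*. Both were named after their values were seen. *Gm38317* lies on chromosome 3 (12975359 to 12975701 in the deposited table, mm10), whereas *Itgb5* lies on chromosome 16, and it had 4.39% to 5.95% as many fragments as *Itgb5* in the 4 sums. Whether fragments of 1 locus were assigned to the other was not tested.

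Among the other members, the highest partners of *Gas6* were *Mrc1* (0.46), *Selenop* (0.45), *Maf* (0.44), *Wwp1* (0.43) and *C1qc* (0.40), and its lowest were *Mmp12* (-0.36) and *Anxa1* (-0.35). *Stab1* went with *C5ar1* (0.37), *Gas6* (0.35) and *Maf* (0.32).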
